A study of Mus musculus with 44 samples.

Results

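The upstream Traj genes are the joining segments of the T cell receptor alpha (TRA) locus that lie nearest to the V genes. Traj58, Traj57, Traj56, Traj53, Traj52, Traj49, Traj48, Traj47 and Traj45 were followed through the residues with which each ends a CDR3, the antigen-contacting loop at the V-J junction. A CDR3 was given to 1 of these 9 genes when its amino acid sequence ended in GTGSKLSF (Traj58), GGSAKLIF (Traj57), GGNNKLTF (Traj56), GGSNYKLTF (Traj53), GANTGKLTF (Traj52), GYQNFYF (Traj49), GNEKITF (Traj48), ANKMIF (Traj47) or GGADRLTF (Traj45). By these endings the genes held 8227 of 58884 TRA entries, an entry being 1 CDR3 in 1 tumour, and 5327 of 35230 distinct TRA CDR3s. They held 161851 of 1841575 TRA reads. The whole table has 170818 entries of both chains, of which 34.5% were TRA.

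The libraries came from 44 B16F10 tumours, a mouse melanoma line grown in wild-type mice (C57BL/6 in the labels, C57BL/6J in the methods) and taken on day 12, with 100 μg of bulk tumour tissue per library. AC484, an inhibitor of the phosphatases PTPN2 and PTPN1, had been given to 15 mice and anti-PD-1, an antibody against a T cell checkpoint receptor, to 15 others, and 14 were controls that the labels call vehicle and the methods describe as untreated. Each library is 1 tumour, the labels give neither dose nor age, and T cells were not sorted, so fewer T cells and less receptor RNA per cell cannot be told apart. TRA reads per tumour ranged from 18508 to 315679 with AC484, from 10432 to 108156 with anti-PD-1 and from 1466 to 24129 with vehicle. Distinct TRA CDR3s per tumour ranged from 1153 to 4805 with AC484, from 538 to 2038 with anti-PD-1 and from 72 to 889 with vehicle. All were run on 1 flow cell, with indexing primers from 4 sets. Of these, set 1 contained 12 vehicle tumours, set 2 held 10 anti-PD-1 and 2 vehicle tumours, set 3 held 7 AC484 and 5 anti-PD-1 tumours, and set 4 held 8 AC484 tumours. No set held both AC484 and vehicle tumours. The TRA share of a library's reads differed between sets within a treatment. Its median was 6.47% in set 2 and 28.9% in set 3 with anti-PD-1, and 18.5% in set 1 and 4.49% in set 2 with vehicle. With AC484 it was 29.9% in set 3 and 31.7% in set 4. Median distinct TRA CDR3s with anti-PD-1 were 1218 in set 2 and 1104 in set 3. The deposited values are reads of amplified transcripts, so a count is not a count of cells.

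In the thymus a TRA chain is made by joining a V segment directly to a J segment, without a D segment. Joining can be repeated on the same chromosome until a receptor is selected. The first joins tend to use the V segments and J segments that lie closest to each other, and each further join moves outwards, to V segments farther upstream and J segments farther downstream. TRA chains with upstream Traj genes are therefore commonly taken as products of early joins.

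The germline sequence of each gene is shown because the endings, and the residues lost from them, are read against it. In GRCm38 (RefSeq sequence, GENCODE M21 annotation) the 9 genes lie on the plus strand of chromosome 14, each annotated as a J gene segment, within 15.6 kb. Traj58 is at chr14:54157280-54157342, Traj49 at chr14:54168686-54168747 and Traj45 at chr14:54172828-54172890. Capitals mark the bases that encode the ending used for the gene, or, for Traj45, the bases at its place.
Traj58: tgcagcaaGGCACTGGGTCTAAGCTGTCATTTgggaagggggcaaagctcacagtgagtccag
Traj57: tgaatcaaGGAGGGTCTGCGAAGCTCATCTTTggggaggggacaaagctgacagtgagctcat
Traj56: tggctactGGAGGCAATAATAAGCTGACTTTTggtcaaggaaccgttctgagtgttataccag
Traj53: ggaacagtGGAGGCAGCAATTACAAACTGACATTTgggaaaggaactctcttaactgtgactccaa
Traj52: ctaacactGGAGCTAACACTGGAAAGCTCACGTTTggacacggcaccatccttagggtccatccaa
Traj49: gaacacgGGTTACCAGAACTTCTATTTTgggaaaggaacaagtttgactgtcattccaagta
Traj48: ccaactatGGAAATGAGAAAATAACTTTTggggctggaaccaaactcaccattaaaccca
Traj47: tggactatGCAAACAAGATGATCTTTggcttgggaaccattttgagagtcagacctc
Traj45: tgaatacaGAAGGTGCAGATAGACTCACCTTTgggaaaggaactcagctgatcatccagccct
Of 46 TRAJ genes with a germline CDR3 ending in GRCm38, these are numbers 1 to 5, 7 to 9 and 11 from the V side. Number 6, Traj50, lies among them and is not one of the 9, and Traj46, number 10, had no CDR3. The recombination signal in front of a J gene has, next to the gene, a heptamer whose consensus on this strand reads CACTGTG. Traj48 carries it without a mismatch, Traj49 (CACAGTG) and Traj56 (CATTGTG) differ from it at 1 base, and the other 6 genes differ at 2 or 3 bases.

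For 8 of the 9 genes the ending used is the germline ending, but for Traj45 it is not. GRCm38, which is the C57BL/6J genome, encodes EGADRLTF where the ending used has GGADRLTF. Only 15 entries of 64 reads in 12 tumours ended in GGADRLTF, whereas 836 entries of 9564 reads in all 44 tumours ended in EGADRLTF. The largest of the 15 was cavsegGADRLTF, in which capitals mark the residues that match the germline ending, with 25 reads in 1 anti-PD-1 tumour. Its counterpart with E was in the same tumour with 8 reads, and none of the other 14 entries had its counterpart in its own tumour. Traj45 is therefore given below by its germline ending, a choice made after the data were seen. With it, the 9 genes held 9048 entries, 5889 distinct CDR3s and 171351 reads, or 15.4% of TRA entries.

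Usage, the number of a gene's distinct CDR3s as a percentage of all distinct TRA CDR3s of the tumour, was highest for Traj49. Over 44 tumours Traj49 averaged 3.10 ± 0.58% (SD), Traj48 1.98 ± 0.59%, Traj57 1.67 ± 0.64%, Traj56 1.58 ± 0.45% and Traj52 1.46 ± 0.56%. Traj45 averaged 1.33 ± 0.44%, Traj58 1.21 ± 0.54%, Traj47 1.14 ± 0.39% and Traj53 1.07 ± 0.37%. Traj49 exceeded Traj48, the next in order, in 40 of 44 tumours (two-sided sign-flip permutation test over tumours, adjusted p = 8e-05 over the 8 pairs of neighbours). The other 7 pairs of neighbours did not differ beyond their spread, with adjusted p between 0.28 and 0.45. The pairs were formed from the order of these same means, so each mean difference was positive by construction. With every TRAJ gene counted by its longest germline match, Traj49 ranked 11th and Traj53 37th of the 43 genes seen. The 9 genes had a median usage of 1.59% (range 1.09 to 3.16%), and the 34 other genes one of 2.40% (range 0.548 to 5.30%). The most used were Traj22, Traj23 and Traj31, with 3106, 2766 and 2706 entries, against 1940 for Traj49. Across the 43 genes Spearman's rho of usage was 0.13 with the position in the locus and -0.21 with the number of heptamer mismatches, descriptions across genes that share the same libraries.

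The question of the treatment comparisons was whether the T cell receptors of a tumour used these genes differently after AC484 or anti-PD-1. Distinct CDR3s per gene were compared with edgeR's quasi-likelihood test over 42 TRAJ genes with at least 100 entries, 8 of them upstream genes. None of the 8 passed an adjusted p of 0.05 in any comparison. The share of all TRAJ genes called was 9.52% for AC484 against vehicle, 11.9% for AC484 against anti-PD-1 and 2.38% for anti-PD-1 against vehicle. At an unadjusted p under 0.05, 1 of the 8 was higher with AC484 than with vehicle (7 of all 42 genes passed, 3 of them higher) and 3 of the 8 were higher with AC484 than with anti-PD-1 (10 of 42 passed, 6 of them higher). None of the 8 passed between anti-PD-1 and vehicle (3 of 42). DESeq2 called none of the 8 in any comparison.

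**Figure D1:**
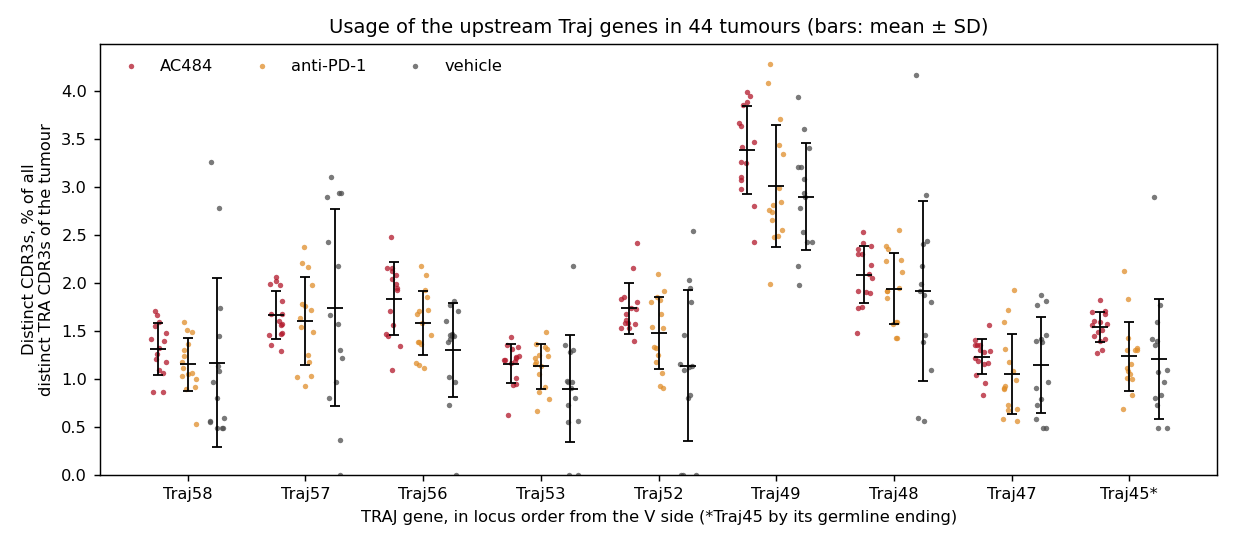
Usage of each upstream Traj gene (vertical axis, distinct CDR3s as % of all distinct TRA CDR3s of the tumour) by treatment, 1 point per tumour, with the mean and SD; Traj45 is counted by its germline ending. Traj49 stands above the other genes in all 3 groups, and vehicle tumours, which held the fewest CDR3s, spread most for each gene but Traj49.

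Traj49, the most used of the 9, had 40 to 185 distinct CDR3s per tumour with AC484 (median 58), 15 to 61 with anti-PD-1 (median 32) and 2 to 35 with vehicle (median 9.5). Its usage ranged from 2.43 to 3.99% with AC484 (median 3.42%), from 1.99 to 4.28% with anti-PD-1 (median 2.81%) and from 1.98 to 3.94% with vehicle (median 2.92%). The 3 groups overlapped over most of their range. The log2 fold change of usage was 0.17 (SE 0.12) for AC484 over vehicle (adjusted p = 0.46) and 0.19 (SE 0.08) for AC484 over anti-PD-1 (adjusted p = 0.090). Calls for Traj49 in the second of these moved with the setting: it passed at 0.047 both with the longest match for all genes and without CDR3s of a single read, and when AC484 tumour 2 (adjusted p = 0.034) or anti-PD-1 tumour 5 (0.025), 13 (0.047) or 14 (0.044) was left out. With the index set as a block the log2 fold change of Traj49 was 0.10 (adjusted p = 0.94).

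Traj45, the J gene farthest downstream of the 9, was the 1 gene that passed the threshold once it was counted by its germline ending. Its usage ranged from 1.27 to 1.83% with AC484 (median 1.56%), from 0.683 to 2.12% with anti-PD-1 (median 1.15%) and from 0.485 to 2.90% with vehicle (median 1.08%). AC484 tumours lay in a narrow band above most anti-PD-1 tumours, while the highest anti-PD-1 and the highest vehicle tumour lay above all of them. The log2 fold change was 0.33 (SE 0.12) for AC484 over anti-PD-1 (adjusted p = 0.039), 0.27 (SE 0.18) for AC484 over vehicle (adjusted p = 0.44) and -0.07 (SE 0.20) for anti-PD-1 over vehicle (adjusted p = 0.999). The first value depended on the setting. Traj45 by this ending was not fitted at equal TRA reads, by reads or without CDR3s of a single read. The difference kept its size within index set 3 (0.32, adjusted p = 0.60) and with the index set as a block (0.32, adjusted p = 0.60), but was not called there, and it was not called with DESeq2 (adjusted p = 0.11), TMM scaling (0.061) or the replicate number as a block (0.066), so that none of these 5 settings kept the call. Leaving out 1 tumour at a time moved the adjusted p between 0.015 and 0.075, and 21 of 30 such fits kept the call, which was lost without AC484 tumour 4, 8 or 10 or anti-PD-1 tumour 1, 5, 7, 8, 10 or 12.

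Traj56 had the largest log2 fold change of the 8 tested genes for AC484 over vehicle, 0.40 (SE 0.17, adjusted p = 0.17). Its usage ranged from 1.10 to 2.48% with AC484 (median 1.95%), from 1.12 to 2.17% with anti-PD-1 (median 1.59%) and from 0 to 1.81% with vehicle (median 1.45%), and the groups overlapped. Traj52, which had no CDR3 in 3 of 14 vehicle tumours, followed with 0.32 (SE 0.18, adjusted p = 0.39). Traj58, the J gene nearest to the V genes, ranged from 0.866 to 1.71% with AC484 (median 1.32%), from 0.528 to 1.59% with anti-PD-1 (median 1.12%) and from 0.485 to 3.26% with vehicle (median 0.883%). The vehicle tumours thus held both the lowest and the highest values of Traj58, on 1 to 12 distinct CDR3s per tumour, and its log2 fold change for AC484 over vehicle was 0.31 (SE 0.20, adjusted p = 0.46). Traj57 was the 1 gene with values below 0 in all 3 comparisons, -0.07 (SE 0.17) for AC484 over vehicle, -0.02 (SE 0.11) for AC484 over anti-PD-1 and -0.05 (SE 0.18) for anti-PD-1 over vehicle, none past the threshold.

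**Figure D2:**
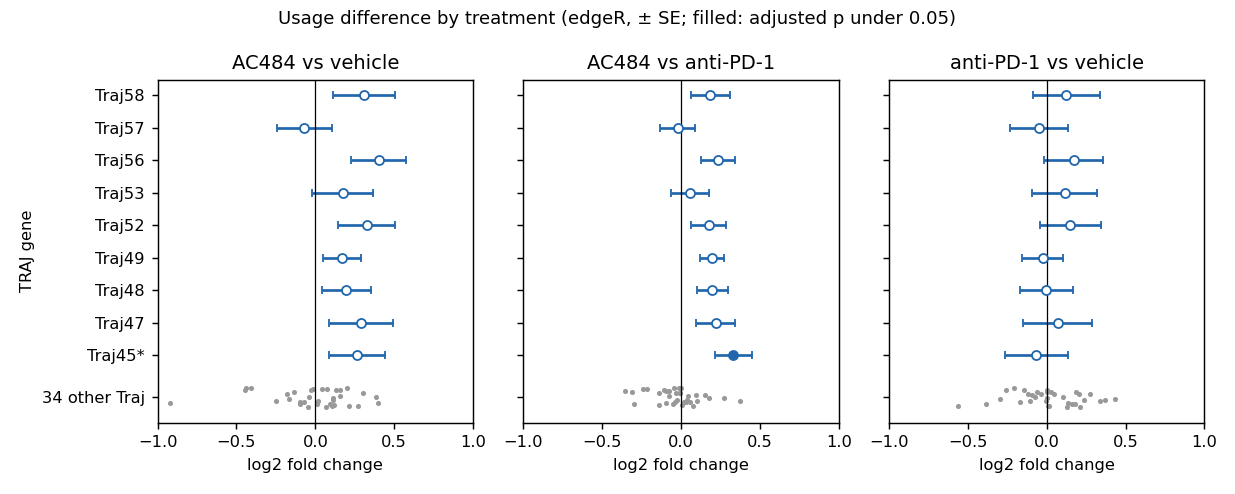
Log2 fold change of usage (horizontal axis, first group over second) with its standard error for each upstream Traj gene, and for the 34 other tested TRAJ genes as grey points, in the 3 comparisons. Among the upstream genes, filled points pass an adjusted p of 0.05, which only Traj45 by its germline ending did, in AC484 over anti-PD-1; the grey points do not show which of the other genes passed.

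As a group, 7 of the 8 genes had a positive log2 fold change for AC484 over vehicle, against 26 of all 42 genes tested, with a median of 0.24 against 0.08 over all. For AC484 over anti-PD-1, which shares the AC484 tumours, 7 of 8 were positive against 20 of 42, with a median of 0.19 against -0.0035. For anti-PD-1 over vehicle 5 of 8 were positive against 25 of 42, with a median of 0.09 against 0.01. Summed over the 9 genes, with Traj45 by its germline ending, usage ranged from 14.3 to 17.1% with AC484 (median 16.1%), from 12.0 to 15.5% with anti-PD-1 (median 14.3%) and from 10.2 to 17.8% with vehicle (median 12.9%). AC484 tumours lay mostly above the other groups, and all groups overlapped. Since the genes were chosen with earlier results known, these sums and counts carry no test. TRA depth differed in the same order. With every tumour drawn to 1466 TRA reads, 6 of the 8 genes were positive for AC484 over vehicle (median 0.13) and 5 of 8 for AC484 over anti-PD-1 (median 0.11), none of them called. For anti-PD-1 over vehicle 3 of 8 were positive (median -0.08), again none called. Such counts over all 42 genes were not made at equal reads. At this depth Traj56 and Traj52 had 0.41 and 0.48 for AC484 over vehicle, and Traj58 and Traj57 -0.25 and -0.51.

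Among all TRAJ genes tested, 1 was higher and 3 were lower with AC484 than with vehicle, 2 were higher and 3 lower with AC484 than with anti-PD-1, and 1 was lower with anti-PD-1 than with vehicle. The genes whose usage over 44 tumours was most like that of the upstream genes summed by the endings used were Traj50 (Pearson's r = 0.47 of log2 shares), Traj26 (r = 0.32) and Traj40 (r = 0.29), a description over libraries that also differ in depth. Traj50, which lies between Traj52 and Traj49, averaged 1.70% in AC484, 1.31% in anti-PD-1 and 1.16% in vehicle tumours, and was higher with AC484 than with anti-PD-1 (log2 fold change 0.37, SE 0.12, adjusted p = 0.017).

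The beginning of a CDR3 carries residues of the V gene, which the ending did not use, so the pairing of the upstream J genes with V genes could be tested. Of 108 functional TRAV genes, those nearest to the J genes with a CDR3 start of their own are Trav17 (CDR3 start caleg), Trav19 (start caag) and Trav21-dv12 (start cilrv, below called Trav21). Trav18 and Trav23, also among the 10 nearest, encode starts too short to be told apart and gave no CDR3. A CDR3 was counted as V-proximal when its first residues, at least 4, matched 1 of these subgroups better than any other. This held for 2055 of the 58884 TRA entries, or 3.49%. A single TRAV subgroup of any position could be matched in 33.1% of TRA entries. The shares of V-proximal starts below are of all CDR3s, matched or not. The upstream Traj genes carried these starts more often, most of all the 4 nearest to the V genes. V-proximal starts made up 23.8% of the CDR3s of Traj58 (178 of 747), 22.4% of Traj57 (218 of 975), 17.2% of Traj56 (174 of 1010) and 14.9% of Traj53 (101 of 678). Expected numbers, from the share among all other TRA CDR3s of the same tumour, were 24.4, 30.8, 32.9 and 23.0, so the observed numbers were 7.30, 7.07, 5.28 and 4.40 times the expected. Traj57 lay above the expected number in 41 tumours and below it in 2, and Traj58 above it in 36 and below it in 8.

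The remaining upstream genes had smaller excesses. The ratio of observed to expected was 1.79 for Traj52 (59 of 957 CDR3s), 2.05 for Traj49 (134 of 1940), 1.65 for Traj48 (69 of 1209), 2.53 for Traj47 (61 of 696) and 1.76 for Traj45 by its germline ending (51 of 836). All 8 genes tested lay above the expected number, with adjusted p between 2e-05 and 0.00081 (two-sided sign-flip permutation test over 44 tumours, 100000 resamples, whose smallest unadjusted p is 1e-05), and Traj45 did so with an adjusted p of 0.0018. Of all 42 TRAJ genes, 28.6% were called above and 59.5% below the expected number. The 4 other genes above it, Traj50 among them, lay between 10.3 and 20.6 kb from Traj58, and the 25 below it lay farther downstream. Since the expected number rests on the other genes, a gene can fall below it because the upstream genes are high. Across the 42 genes Spearman's rho of the share with position was -0.82, a description across genes of the same libraries. For Traj48, which lay above the expected number in 23 tumours and below it in 21, the call was lost when tumours were weighted equally (adjusted p = 0.12). Traj45 by its germline ending likewise lay above it in 23 tumours and below it in 21. Traj47 lay above it in 24 and below it in 20.

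**Figure D3:**
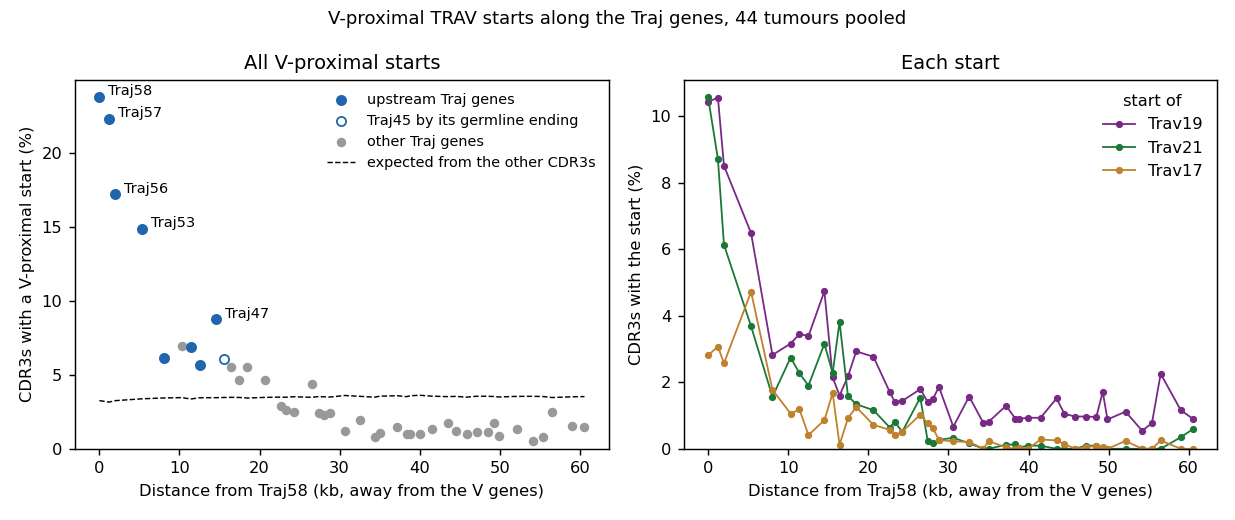
Left, share of CDR3s with a V-proximal start (vertical axis, % of the gene's CDR3 entries over 44 tumours) against the distance of each Traj gene from Traj58 (kb); the dashed line is the share expected from the other CDR3s. Right, the same for the starts of Trav19, Trav21 and Trav17 singly; Traj58 reaches 23.8% in all, and no gene beyond 30 kb exceeds 2.51%.

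All 3 starts contributed in Traj58 and Traj57. The start of Trav19 made up 10.4% of the CDR3s of Traj58 and 10.6% of those of Traj57, against 1.97% of all TRA entries. That of Trav21 made up 10.6% and 8.72%, against 0.975%, and that of Trav17 2.81% and 3.08%, against 0.543%. The start caag can also arise from the caa of other V genes followed by an added or J-encoded glycine, so the other starts were also looked at alone. With the start of Trav21 alone, chosen after the data were seen, the ratio of observed to expected was 12.2 for Traj58, 10.5 for Traj57, 6.83 for Traj56 and 3.86 for Traj53. It was 4.02 for Traj44 and 2.86 for Traj50, which are not among the 9 genes, so this excess was not particular to them. With this start 7 of the 9 genes were called above the expected number, the exceptions being Traj48 (adjusted p = 0.058) and Traj52 (0.14). Of the 34 other genes, 2 were called above it and 25 below it. For the start of Trav17 alone, which was not tested, the ratio was 0.77 for Traj48 (5 CDR3s against 6.50 expected). For the other upstream genes it ran from 1.62 (Traj47) to 9.52 (Traj53). For that of Trav19, also not tested, it ran from 1.09 (Traj45) to 5.80 (Traj57). When starts that overlap the residues matched to the J gene were left out, also chosen after the data were seen, all 9 genes kept an excess, with ratios from 1.71 to 7.59. Of the 34 other genes, 4 were then called above and 26 below the expected number. Each CDR3 found in several tumours counts in each of them. Counted once, V-proximal starts made up 23.1% of the 529 distinct CDR3s of Traj58 and 19.5% of the 652 of Traj57, against 3.93% of all 35230.

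To show such joins, the CDR3 with a given start that was found in most tumours is printed for 4 genes, again with the matched J residues in capitals. The pairs were chosen after their values were seen.
Traj58 and Trav19: caagQQGTGSKLSF
Traj58 and Trav21: cilrgQGTGSKLSF
Traj57 and Trav19: caagNQGGSAKLIF
Traj57 and Trav21: cilrvNQGGSAKLIF
Traj56 and Trav21: cilrvATGGNNKLTF
Traj53 and Trav17: calegGGSNYKLTF
The Traj57 sequence caagNQGGSAKLIF consists of the Trav19 start and the whole germline ending and was found in 25 tumours, 6 from AC484, 11 from anti-PD-1 and 8 from vehicle mice, with 261 reads in all and at most 35 in 1 tumour. Its Trav21 counterpart cilrvNQGGSAKLIF was found in 7 tumours, 5 with AC484 and 2 with anti-PD-1.

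V-proximal starts were frequent in the CDR3s of the 4 most upstream genes in each treatment group. For Traj58 they made up 22.5% in AC484, 26.8% in anti-PD-1 and 23.7% in vehicle tumours, and for Traj57 21.8% in AC484, 20.2% in anti-PD-1 and 33.0% in vehicle tumours. For Traj56 the AC484, anti-PD-1 and vehicle shares were 17.1%, 19.4% and 10.5%, and for Traj53 they were 14.1%, 16.2% and 15.8%. The vehicle shares rest on 57 to 94 CDR3s per gene, and differences between the groups were not tested.

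CDR3s were longest for the upstream genes with the longest germline endings. Distinct CDR3s averaged 15.4 ± 1.24 residues (SD) for Traj53 and 15.2 ± 1.41 for Traj52, whose endings have 11 residues, and 13.0 ± 1.23 for Traj47, whose ending has 8. By the longest match, the whole germline ending was kept in 57.1% of the CDR3s given to Traj47 and in 20.3% of those given to Traj45, with a median of 33.3% over the 9 genes and over the 34 others alike. Traj58 lost the most residues, 1.39 on average, and Traj47 the fewest, 0.587.

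Sharing between at least 2 tumours was close to that of all TRA CDR3s. Of 5889 distinct CDR3s of the 9 genes, 1377 or 23.4% were found in at least 2 tumours, against 25.3% of all 35230. Traj49 had the highest share, 28.6% (317 of 1110), and Traj47 the lowest, 17.7% (91 of 514). Across the 43 genes this share followed the number of distinct CDR3s (Spearman's rho 0.80, a description across genes). Within a group, the share of a gene's CDR3s found in at least 2 tumours lay between 13.6 and 23.8% with AC484, between 11.9 and 20.2% with anti-PD-1 and between 3.92 and 16.3% with vehicle, in the order of depth.

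**Figure D4:**
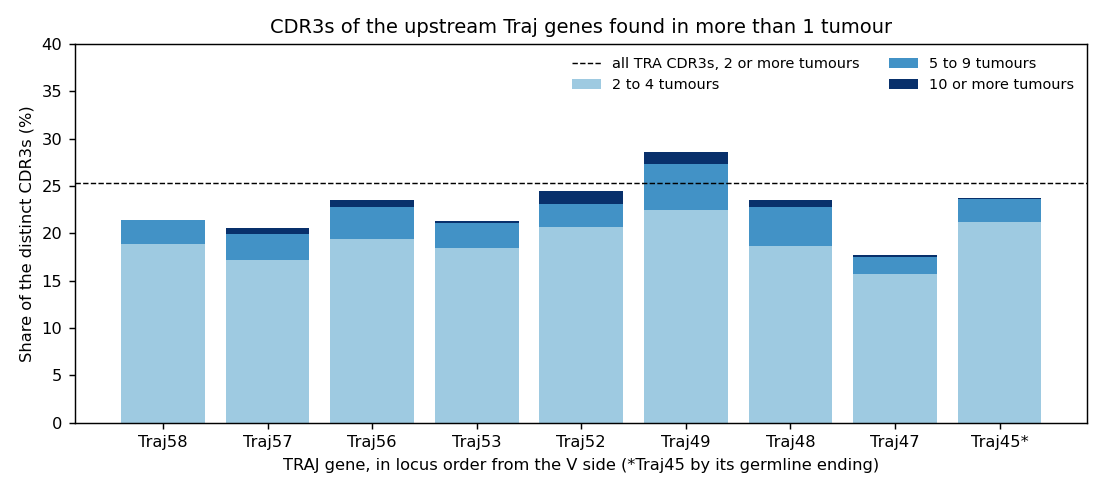
Share of each upstream gene's distinct CDR3s (vertical axis, %) found in 2 to 4, 5 to 9 and 10 or more of the 44 tumours, with Traj45 by its germline ending; the dashed line marks all TRA CDR3s found in at least 2 tumours (25.3%). Traj49, at 28.6%, is the 1 gene above that line.

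Public CDR3s, those in at least 10 of 44 tumours, numbered 39 for the upstream genes of 418 in all, 14 of them with Traj49, 8 with Traj52 and none with Traj58. They made up 0.662% of the 5889 distinct CDR3s of the 9 genes, against 1.19% of all 35230, a difference that was not tested. The CDR3 found in most tumours is shown for each gene, to set apart joins that keep the germline ending from those that do not.
Traj58: caagQQGTGSKLSF
Traj57: caagNQGGSAKLIF
Traj56: caATGGNNKLTF
Traj53: caaSGGSNYKLTF
Traj52: caasgTGANTGKLTF
Traj49: cavsTGYQNFYF
Traj48: camraNYGNEKITF
Traj47: cavsmDYANKMIF
Traj45: caasgTEGADRLTF
The Traj53 sequence was in 26 tumours, the Traj57 sequence in 25, the Traj49 sequence in 21, the Traj52 sequence in 18, the Traj56 sequence in 17 and those of Traj48 and Traj47 in 16 each. Those of Traj45 and Traj58 were in 10 and 9. Their median read count over the tumours that held them lay between 4 and 21.

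For AC484 against vehicle, 17 of the 39 public CDR3s were found in more AC484 tumours (Fisher's exact test, adjusted p under 0.05) and none in more vehicle tumours, beside 36.8% of all 418. The upstream genes were thus near the share of all public TRA CDR3s. A CDR3 could enter this list through AC484 tumours alone, since presence was counted in the same tumours that were compared. Of the 418, 398 were in a larger share of AC484 than of vehicle tumours, as were 38 of the 39. The sequences named next are therefore examples from a list that leans to AC484 tumours. The lowest adjusted p was that of the Traj56 sequence calsgTGGNNKLTF, in 12 of 15 AC484 tumours and 0 of 14 vehicle tumours (exact adjusted p = 0.00063). The Traj52 sequence caasgTGANTGKLTF was in 13 of 15 AC484 tumours and 1 of 14 vehicle tumours (exact adjusted p = 0.0011), and the Traj49 sequence cavsTGYQNFYF in 12 and 2 (0.0067). The other 14 belonged to Traj49 (6), Traj52 (3), Traj56 (3), Traj48 (1) and Traj47 (1). AC484 tumours also held more TRA reads, and with every tumour drawn to 1466 TRA reads 40 public CDR3s were left to test, 4 of them with upstream genes, and none of the 4 was called. Where 5 tumours sufficed, 4 of 228 with upstream genes were called, beside 46 of all 1839. Between AC484 and anti-PD-1 0.0% of the 418 were called, and likewise 0.0% between anti-PD-1 and vehicle (Fisher's exact test, 30 and 82 at an unadjusted p under 0.05).

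Reads were spread unevenly over clones. Of TRA reads, the 9 genes together took 4.64 to 28.7% with AC484 (median 8.90%), 3.65 to 18.4% with anti-PD-1 (median 7.88%) and 2.95 to 24.7% with vehicle (median 6.33%). The 10 largest entries held 24.1% of the reads of Traj58 and 76.6% of those of Traj53. CDR3s with at least 1% of the TRA reads of their tumour numbered 57 for the 9 genes, of 631 for all TRA: 26 of 237 with AC484, 17 of 210 with anti-PD-1 and 14 of 184 with vehicle. Traj48 had 14, Traj49 11 and Traj47 9 of the 57, and Traj58 had 1.

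**Figure D5:**
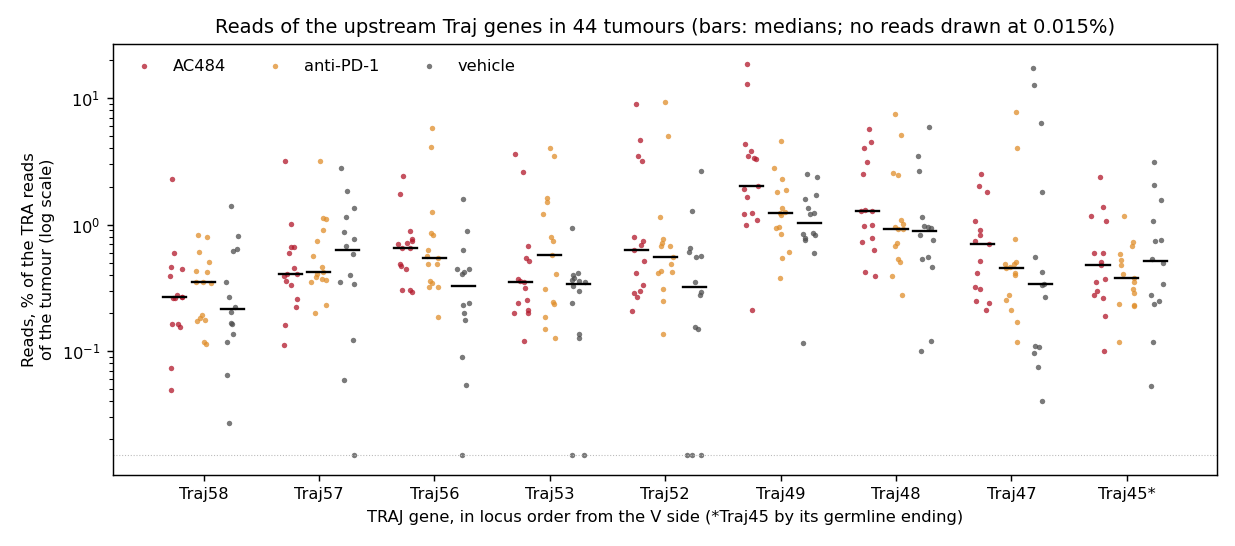
Reads of each upstream Traj gene as % of the TRA reads of the tumour (vertical axis, log scale), 1 point per tumour, with the group median; tumours without reads are drawn at the dotted line. Single tumours reach 18.8% for Traj49 with AC484 and 17.3% for Traj47 with vehicle.

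The Traj49 and Traj47 sequences below held the largest shares of the TRA reads of a tumour, and were chosen after their values were seen, while the Traj52 sequence held the most reads.
Traj49: camdrrGYQNFYF
Traj47: caaseeDYANKMIF
Traj52: calsdesNTGANTGKLTF
The Traj49 sequence held 17.7% of the TRA reads of AC484 tumour 11 (3270 of 18508), and the Traj47 sequence 16.9% of those of vehicle tumour 8 (341 of 2014). The Traj52 sequence held 8.61% of those of AC484 tumour 6 and was, with 8293 reads, the largest entry of the 9 genes. The largest Traj49 entry by reads, caggpGYQNFYF, held 6659 reads or 12.4% of AC484 tumour 8. The public Traj53 sequence caaSGGSNYKLTF held 8121 reads in AC484 tumour 4 and a median of 9 reads over its 26 tumours. Counted by reads, 5 of all 42 TRAJ genes were called for AC484 against vehicle (11 at an unadjusted p under 0.05). Traj49 was 1 of them, higher with AC484 (log2 fold change 1.75, edgeR's quasi-likelihood test, adjusted p = 0.013). Its share of TRA reads ranged from 0.212 to 18.8% with AC484 (median 2.01%) and from 0.115 to 2.49% with vehicle (median 1.03%). The call was kept in all 29 fits that left out 1 tumour, with log2 fold changes from 1.32, without AC484 tumour 11, to 1.88. The 2 highest AC484 shares, 18.8% in tumour 11 and 13.0% in tumour 8, were never left out together. Traj49 was not called by distinct CDR3s, as given above.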

How the data were processed

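TCR libraries of 44 tumours were analysed. From bulk tumour RNA the authors amplified both receptor chains (SMARTer kit for mouse TCR), ran a MiSeq and used MiXCR to call clonotypes. The submitters' notes name the mm10 build. As deposited by the authors, the values are counts of reads for each CDR3 (in amino acids) of a tumour, not brought to an equal depth, with no chain, V gene or nucleotide sequence. Copies of a transcript amplified unequally change reads more than distinct CDR3s.

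The longest match of 4 or more residues with germline J endings gave each CDR3 its chain and J gene, with endings of GRCm38 (GENCODE M21), and the 9 genes were taken by the endings named above. A longest match to 1 of the 9 without its ending counted only in the total. Of TRA entries 99.1% matched 1 J gene and 27.2% had 1 read. Members and lists were chosen with earlier results of these data known.

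Distinct CDR3s per gene were tested in 1 edgeR quasi-likelihood fit of all tumours, with all distinct TRA CDR3s as library size and Benjamini-Hochberg adjustment over all TRAJ genes with at least 100 entries. V-proximal starts, from subgroups whose functional genes all lie among the 10 nearest to the J genes, were tested by sign flips over tumours, and public CDR3s by Fisher's exact test. P-values measure the spread between tumours. On simulated counts for AC484 against vehicle (42 genes per run) 99% of genes changed 2-fold and 78% of those changed 1.5-fold were called, and 0.625% of unchanged genes. All genes were simulated with the same dispersion. Changes below 1.5-fold, the range of the upstream genes in the main fit, were not simulated, so these shares do not bear on them. Of starts simulated at a doubled share 9 of 10 genes were called, and 0 of 210 unchanged ones (6 at an unadjusted p under 0.05). No pair of tumours had identical TRA tables. Alternatives were other scalings, filters, assignments, depths and tumour sets. Named are the 9 genes, the 3 most used and 3 most alike other genes, and per gene the CDR3 in most tumours and the one with most reads in 1 tumour. Other genes and CDR3s named were chosen after their values were seen.

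Tests were run with edgeR 4.0.16 and DESeq2 1.42.0 in R 4.3.3, and with SciPy 1.17.1, pandas 2.3.3 and statsmodels 0.14.6 in Python 3.11.15.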

Additional observations from a re-analysis of the deposited data

How the results depend on the processing

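The number of TRAJ genes called was 4 for AC484 against vehicle, 5 for AC484 against anti-PD-1 and 1 for anti-PD-1 against vehicle. With every tumour drawn to 1466 TRA reads it was 1, 0 and 0 (edgeR, with 2, 1 and 0 at an unadjusted p under 0.05), where fewer CDR3s were counted. With the index set as a block it was 0, 1 and 0 (5, 5 and 4 unadjusted). Set 1 held vehicle tumours only, so with this block both comparisons with vehicle rest on the 2 vehicle tumours of set 2. Within index set 3, which holds fewer tumours, 1 gene was called for AC484 against anti-PD-1, and within index set 2 none for anti-PD-1 against vehicle (5 unadjusted). By reads 5 were called for AC484 against vehicle (11 unadjusted). None was called by reads for AC484 against anti-PD-1 or for anti-PD-1 against vehicle (3 and 10 unadjusted), and DESeq2 called 2 for AC484 against anti-PD-1. Beyond what the settings themselves change, the cause was not tested. Leaving out 1 tumour gave 3 to 4, 3 to 6 and 1 to 1 calls in these comparisons, the 3 in the second without AC484 tumour 7. The 3 groups share replicate numbers, which the labels do not say pair the tumours. Deviations of same-numbered tumours correlated over 0.1 in 3 of 14, 3 of 15 and 4 of 14 pairs, and with the replicate number as a replicate block 4, 5 and 1 genes were called. The block ended the call of Traj45 by its germline ending for AC484 over anti-PD-1 (0.33, adjusted p = 0.066). Calls of public CDR3s over the 3 comparisons numbered 154, against 46 where 5 tumours sufficed (1839 tested), 1 at 1466 TRA reads (40 tested) and 128 once possible carry-over between libraries, counts below 1% of a CDR3's highest count, was taken out, of which 123 were for AC484 against vehicle and 5 for anti-PD-1 against vehicle (0 of those 5 with upstream genes). Calls of V-proximal starts numbered 37 of 42 genes, and 33 to 38 in the alternatives with the same genes. With Traj45 by its germline ending as the 43rd gene they numbered 38, and 39 without starts that overlap the J match and 34 with the start of Trav21 alone.

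Log2 fold changes of uncalled upstream genes changed sign as follows. For AC484 over vehicle they were -0.25 for Traj58 at equal reads, 1.32 for Traj57 and -0.15 for Traj48 with the index set as a block, -0.026 for Traj53 without CDR3s of a single read, and -1.76 for Traj47 by reads. For AC484 over anti-PD-1 they were -0.11 for Traj58 and -0.084 for Traj53 at equal reads, 0.023 for Traj57 with the replicate block, 0.027 with the index set as a block and 0.028 within index set 3, and by reads -0.56 for Traj56, -0.56 for Traj53 and -0.39 for Traj47. For anti-PD-1 over vehicle they were -0.13 for Traj58 and -0.163 for Traj47 at equal reads, and by reads -0.00209 for Traj58, 0.33 for Traj49, 0.29 for Traj48 and -1.37 for Traj47. They were 1.29 for Traj57 with the index set as a block and 1.29 within set 2, and for Traj45 by its germline ending 0.66 in both. Without CDR3s of a single read they were -0.079 for Traj53 and -0.156 for Traj47, with TMM scaling 0.0014 for Traj49 and 0.023 for Traj48, with DESeq2 0.0058 for Traj48, and with the replicate block 0.037 for Traj48. With 1 tumour left out, Traj57 ranged from -0.17 to 0.0125 for AC484 over vehicle and from -0.058 to 0.035 for AC484 over anti-PD-1. For anti-PD-1 over vehicle Traj57 ranged from -0.14 to 0.034, Traj58 from -0.0032 to 0.29, Traj49 from -0.069 to 0.054, Traj48 from -0.072 to 0.049, Traj47 from -0.043 to 0.16 and Traj45 by its germline ending from -0.14 to 0.15. The smallest TRA totals lay in the vehicle group and limited the precision there.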
